A study of Homo sapiens with 6 samples.

Results

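Mitochondria are remodelled by opposing fission and fusion. Fission is carried out by the dynamin-related GTPase DRP1, encoded by DNM1L, which is recruited from the cytosol to the mitochondrial outer membrane by the adaptors FIS1, MFF, MIEF1 and MIEF2 and constricts the organelle. Fusion of the outer membrane is carried out by the mitofusins MFN1 and MFN2 and that of the inner membrane by OPA1, which is cut by the inner membrane proteases OMA1 and YME1L1. These 10 genes were described here in H1975 cells, a human EGFR-mutant non-small cell lung cancer line, before and after adaptation to osimertinib (Osi), an EGFR tyrosine kinase inhibitor. They were chosen by symbol, and all 10 were found among the 27216 rows of the expression table and all 10 were tested.

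The comparison was of 3 parental samples (Osi for 0 h) with 3 adapted samples (1000 nM Osi for 72 h), all wild-type for genotype by the labels and all of 1 cell line. The study's text gives this concentration of Osi for other assays, whereas its list of compounds gives a lower one. After treatment, apoptotic cells had been washed off before RNA was taken, so the adapted samples hold the cells that remained attached. The parental columns of the table carry the name DMSO, and how long those cells were in culture is not given, so exposure to Osi and time in culture cannot be told apart. The labels also describe digestion with RNase R, which removes linear RNA, whereas the study's methods name total RNA only. In bulk RNA, fewer cells of a type and less RNA per cell cannot be told apart. Values are log2(FPKM + 1), where FPKM is a read abundance scaled to transcript length and to the sample's total. Levels set between different genes therefore rest on the transcript length used for each. Rows with a mean of at least 1 over the 6 samples (12656 rows) were compared with limma, with adjusted p under 0.05 as the threshold. Read depth is unknown, and the spread between samples is the only error given. Whether the 3 samples of a group came from separate cultures is not stated, so the p-values measure the spread between these samples, which may be technical.

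The samples expressed epithelial markers, which cannot tell H1975 from another epithelial line. All 7 epithelial markers were above 10 FPKM in every sample and summed to 3769 to 3798 FPKM in parental and 2867 to 3020 FPKM in adapted cells. The 6 immune markers summed to at most 1.25 FPKM, with CD3E of T cells listed at 0 in all samples and PTPRC of leukocytes in all parental ones, and the 4 endothelial markers to 1.13 to 1.88 FPKM in parental and 1.49 to 3.50 FPKM in adapted cells. The 6 fibroblast markers summed to 3.04 to 3.16 FPKM in parental and 7.66 to 9.21 FPKM in adapted cells, without overlap, and most of this was COL1A1. The part of these markers in the results was not tested. As a check of the drug, 5 genes of ERK output were listed (DUSP6, EGR1, SPRY4, ETV4 and ETV5). They summed to 63.4 to 67.0 FPKM in parental and 3.95 to 8.14 FPKM in adapted cells. Adapted replicate 1 stood somewhat apart, with a correlation across rows of 0.978 and 0.977 with the other adapted samples, which correlated at 0.992 with each other.

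Of the 10 genes, 6 rose (FIS1, MFF, MIEF1, MIEF2, MFN1 and MFN2), 3 fell (DNM1L, OPA1 and YME1L1) and OMA1 was not past the threshold. Over all rows tested, 56.9% were past it, 30.7% as higher and 26.2% as lower in adapted cells, so that a call was common in these data. Among rows with a mean of at least 3, as all 10 genes had, 58.7% were. The groups did not overlap in any of the 10 genes, against 66.3% of all rows. The changes were small for most: the absolute log2 fold change was under 0.5 in 9 of the 10 and at least 1 in MIEF2 alone. The median log2 fold change of the 10 genes was 0.20, beside 0.028 for all rows tested. The parental values of OPA1 differ from those of the other 9 genes in how they sit in the table, as described with that gene. With 0.2 subtracted from them, OPA1 was not past the threshold (limma, adjusted p = 0.0745). MFN1 was just past it as deposited (limma, adjusted p = 0.0496) and lost its call in 12 of 20 alternatives.

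**Figure D1:**
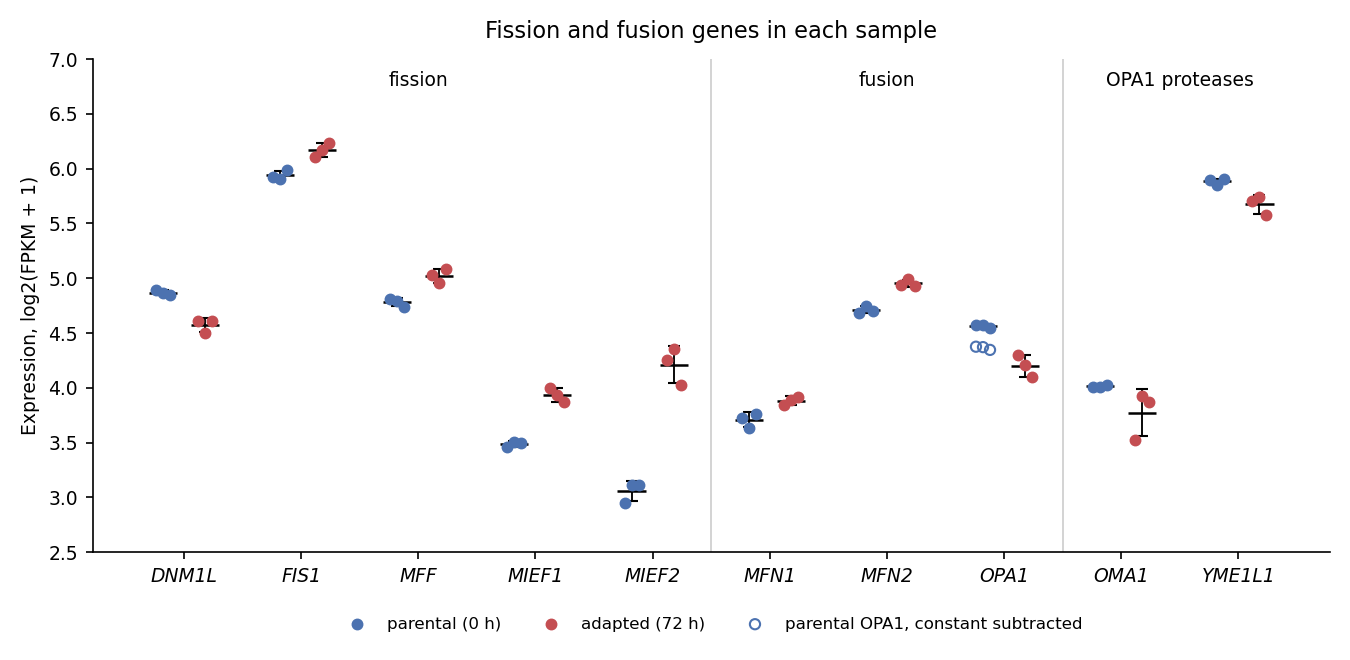
Expression of the 10 genes in each sample, as log2(FPKM + 1), with the mean and SD of the 3 parental (blue) and 3 adapted (red) samples; open circles show parental OPA1 with 0.2 subtracted. The parental and adapted points do not overlap in any gene, and the widest separation is in MIEF2, at 2.95 to 3.11 in parental and 4.02 to 4.35 in adapted samples.

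**Figure D2:**
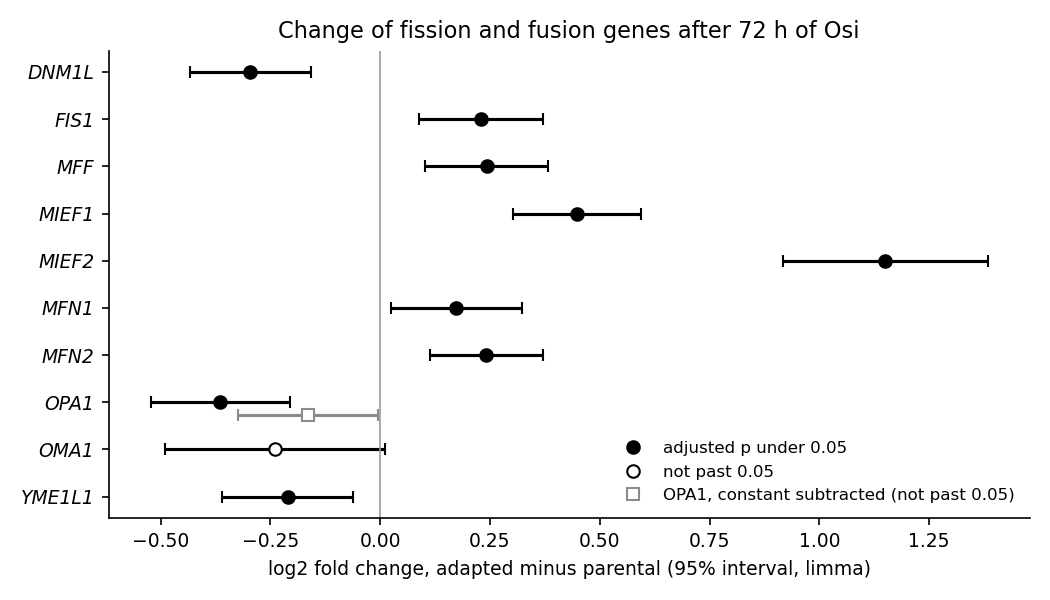
Log2 fold change (adapted minus parental) of each gene with its 95% interval from limma; filled circles are past an adjusted p of 0.05, and the open square is OPA1 with its constant subtracted. The 4 adaptors lie to the right of 0 and DNM1L to the left, and MIEF2, at 1.15, lies farthest from 0.

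Shown are sequences before a RefSeq start of the genes that rose most (MIEF2 and MIEF1) and that fell most as deposited (OPA1 and DNM1L). They are shown because these genes set the range of the response. With the constant described with that gene subtracted, OPA1 changed by -0.16 and no longer ranked among these. The sequences are RefSeq promoter windows on GRCh38.p14, plus strand, trimmed to the bases before the RefSeq start that lie outside exons of protein-coding transcripts. That of MIEF1 lies inside the gene as GENCODE places it (39499432 to 39518132). Capitals mark matches, on either strand, to the letters searched: part of the NRF1 motif, GCGCATG (its copies on both strands overlap in OPA1), the ETS core CCGGAAG, the E-box CACGTG and the CCAAT box CCAAT.
MIEF2, chr17:18260412-18260533: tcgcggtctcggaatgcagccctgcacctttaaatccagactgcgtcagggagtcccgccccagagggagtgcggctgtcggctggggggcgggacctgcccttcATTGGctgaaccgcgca
MIEF1, chr22:39502040-39502289: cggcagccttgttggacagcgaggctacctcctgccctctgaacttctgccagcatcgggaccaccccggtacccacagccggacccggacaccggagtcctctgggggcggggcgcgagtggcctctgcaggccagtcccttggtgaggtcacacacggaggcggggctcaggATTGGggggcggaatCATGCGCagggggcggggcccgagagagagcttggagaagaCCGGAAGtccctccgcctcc
OPA1, chr3:193592958-193593143: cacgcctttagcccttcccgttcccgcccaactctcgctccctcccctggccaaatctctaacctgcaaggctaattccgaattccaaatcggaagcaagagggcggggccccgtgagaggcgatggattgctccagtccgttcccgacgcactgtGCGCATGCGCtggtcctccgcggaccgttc
DNM1L, chr12:32679051-32679199: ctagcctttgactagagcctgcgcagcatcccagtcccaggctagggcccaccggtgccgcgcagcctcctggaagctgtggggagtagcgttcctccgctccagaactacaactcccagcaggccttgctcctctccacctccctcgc

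Windows of 300 bases were found for 9 of the 10 genes, and not for YME1L1. These were 12 windows, since MFF and MIEF2 had several, so a gene with more windows had more chances of a match. The NRF1 letters were in 3 of the 12, those of OPA1, MIEF1 and DNM1L, and in 4.43% of all 35097 windows. The longer form, with the letters on both strands overlapping, was in OPA1 alone, in 1 of the 12 windows and in 1.24% of all windows. NRF1 is nuclear respiratory factor 1, a regulator of nuclear genes for mitochondria. The ETS core was in 3 of the 12 windows, those of MIEF1, FIS1 and MFN1 (10.3% of all windows). The CCAAT box was in 9 of the 12, of MIEF2, MIEF1, MFF, MFN1, DNM1L and OPA1 (34.6%), and the E-box in none (7.25%). All matches in DNM1L lay outside the stretch shown. So did the CCAAT box of OPA1 (25 bases after the start), its NRF1 letters at 17, and the CCAAT box of MIEF2 at -91. The other window of MIEF2, with a CCAAT box at 39, is not shown. A match describes the letters only.

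MIEF2 changed most. It encodes an outer membrane receptor that recruits DRP1 independently of FIS1 and MFF, and lies on chromosome 17 from 18260534 to 18266552 on the plus strand (GENCODE v29, GRCh38). Its log2(FPKM + 1) was 2.95, 3.11 and 3.11 in the parental samples and 4.26, 4.35 and 4.02 in the adapted samples. Every adapted sample was higher than every parental one by a wide margin. The log2 fold change was 1.15 (SE 0.10, 95% interval 0.92 to 1.38, limma, adjusted p = 9.2e-05), and 3.82% of all rows tested had a higher one. Without the added 1, its mean level rose from 7.35 ± 0.52 to 17.6 ± 2.1 FPKM (SD, n = 3 each), a ratio of 2.39. The call was kept in all 20 alternatives, with a log2 fold change between 1.08 and 1.25.

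MIEF1, the paralogue of MIEF2 and likewise a DRP1 receptor, lies on chromosome 22 from 39499432 to 39518132 on the plus strand. It was at 3.46, 3.51 and 3.50 in parental and at 4.0, 3.94 and 3.87 in adapted samples, so that all adapted values were higher. Its log2 fold change was 0.45 (SE 0.06, 95% interval 0.30 to 0.59, limma, adjusted p = 7.6e-04), a ratio of 1.40 in mean FPKM, and the call was kept in all 20 alternatives. A protein-coding gene on the same strand, AL022312.1, shares 2.82% of its exon bases and was at or below 0.11 log2(FPKM + 1) in every sample.

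The order of the paralogues turned over between the groups. MIEF1 minus MIEF2, taken within each sample on the log2 scale, was 0.51, 0.39 and 0.39 in parental and -0.26, -0.42 and -0.15 in adapted cells. MIEF1 was thus the more abundant of the pair in every parental sample and MIEF2 in every adapted sample. The difference changed by -0.70 (p = 0.1 by a two-sided exact permutation test, which with 3 samples in each group cannot give a smaller one).

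MFF, the outer membrane adaptor on which most recruitment of DRP1 depends in many cells, lies on chromosome 2 from 227325151 to 227357836 on the plus strand. Its values were 4.81, 4.79 and 4.74 in parental and 5.03, 4.96 and 5.08 in adapted samples. The rise was small beside that of MIEF2 but larger than the spread between samples (log2 fold change 0.24, SE 0.06, limma, adjusted p = 0.0107). It was not past the threshold without parental replicate 3 (log2 fold change 0.22, adjusted p = 0.0521).

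FIS1, a tail-anchored outer membrane protein that also serves peroxisome division, is a minus-strand gene of chromosome 7 (101239458 to 101252316). It was the most abundant of the 10 genes in both groups, with values of 5.93, 5.91 and 5.99 in parental and 6.11, 6.17 and 6.23 in adapted samples. All adapted values were higher, with a log2 fold change of 0.23 (SE 0.06, limma, adjusted p = 0.0136). The call was lost without parental replicate 1 (log2 fold change 0.22, adjusted p = 0.0564) and without parental replicate 2 (0.21, adjusted p = 0.0661).

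DNM1L went the other way from its adaptors. The gene lies on chromosome 12 from 32679200 to 32745650 on the plus strand and was at 4.89, 4.87 and 4.85 in parental and at 4.61, 4.50 and 4.61 in adapted samples. No adapted value reached the lowest parental one. It fell by 0.30 on the log2 scale (SE 0.06, 95% interval -0.43 to -0.16, limma, adjusted p = 0.00416), from 28.2 ± 0.5 to 22.8 ± 1.0 FPKM (SD, n = 3 each). The call was kept in all 20 alternatives, with a log2 fold change between -0.32 and -0.25.

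Set against DNM1L within each sample, all 4 adaptors were more abundant in adapted cells. The ratio of MFF to DNM1L in FPKM was 0.940, 0.948 and 0.928 in parental and 1.35, 1.39 and 1.41 in adapted samples. In FPKM, MFF thus passed from just below DNM1L to above it, an order that rests on the transcript length used for each gene. The ratio of FIS1 to DNM1L went from 2.14 ± 0.09 to 3.12 ± 0.19, that of MIEF1 from 0.362 ± 0.013 to 0.628 ± 0.040 and that of MIEF2 from 0.261 ± 0.023 to 0.774 ± 0.123 (SD, n = 3 each). In none of the 4 did the groups overlap. These ratios combine values already tested above and were given no test of their own.

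**Figure D3:**
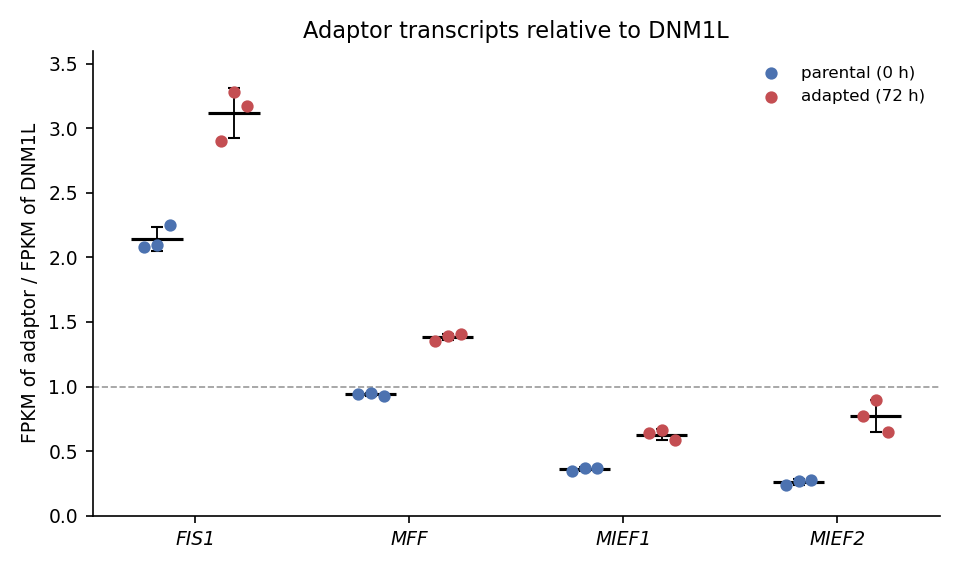
FPKM of each DRP1 adaptor divided by that of DNM1L in the same sample. Black lines give the mean and SD of 3 parental (blue) and 3 adapted (red) samples, and the dashed line marks equal FPKM. MFF lies below the line at 0.928 to 0.948 in parental samples and above it at 1.35 to 1.41 in adapted samples, and MIEF2 rises from 0.261 to 0.774 on average.

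The mitofusins rose slightly and together. MFN2, which also tethers mitochondria to the endoplasmic reticulum, lies on chromosome 1 from 11980181 to 12013514 on the plus strand and was at 4.69, 4.75 and 4.70 in parental and at 4.94, 4.99 and 4.93 in adapted samples. It rose by 0.24 (SE 0.05, 95% interval 0.11 to 0.37, limma, adjusted p = 0.00738) and kept its call in all 20 alternatives. MFN1, on chromosome 3 from 179347692 to 179394931 on the plus strand, was at 3.73, 3.64 and 3.77 in parental and at 3.84, 3.89 and 3.92 in adapted samples. The groups were apart by less than 0.1, and MFN1 was just past the threshold (log2 fold change 0.17, SE 0.06, limma, adjusted p = 0.0496). It lost its call in 12 of 20 alternatives, 5 of which left out one sample (without parental replicate 1, adjusted p = 0.115; without parental replicate 2, 0.189; without parental replicate 3, 0.0783; without adapted replicate 2, 0.0909; without adapted replicate 3, 0.104). Its log2 fold change stayed between 0.14 and 0.22.

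MFN2 was the more abundant mitofusin in every sample, at 25.2 ± 0.6 against 12.1 ± 0.6 FPKM in parental and 30.0 ± 0.7 against 13.8 ± 0.4 FPKM in adapted cells (SD, n = 3 each). MFN2 minus MFN1 was 0.96, 1.11 and 0.94 in parental and 1.10, 1.10 and 1.01 in adapted cells on the log2 scale. These overlapped, and their means differed by 0.068 (two-sided exact permutation test, p = 0.4). No change in the balance of the mitofusins was detectable with 3 samples in each group.

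OPA1, the inner membrane fusion GTPase, which also shapes cristae, lies on chromosome 3 from 193593144 to 193697823 on the plus strand. As deposited, it was at 4.58, 4.57 and 4.55 in parental and at 4.30, 4.21 and 4.10 in adapted samples. All adapted values were lower, by a log2 fold change of -0.36 (SE 0.07, limma, adjusted p = 0.0031). The 3 parental values, however, do not return to FPKM numbers of 6 decimals when the log2 and the added 1 are undone, as all other values of the 10 genes do. They return to such numbers when 0.2 is subtracted on the log2 scale, and of the constants from 0.01 to 0.99 in steps of 0.01 no other does this. Over all rows, 147 have values of 1 group off this grid, 25 of them in the parental samples. With 0.2 subtracted, parental OPA1 was at 4.38, 4.37 and 4.35, still above the adapted values, and the log2 fold change was -0.16 (SE 0.07, limma, adjusted p = 0.0745), not past the threshold. Only the subtracted values share the 6-decimal form of all other values of the 10 genes. The call as deposited thus rests on the 0.2, and where this constant came from is not stated.

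Of the proteases that cut OPA1, YME1L1 fell and OMA1 was not past the threshold. YME1L1, the i-AAA protease, is a minus-strand gene of chromosome 10 (27110112 to 27155266) and was the second most abundant of the 10 genes. It was at 5.89, 5.85 and 5.90 in parental and at 5.70, 5.74 and 5.58 in adapted samples, without overlap. It fell by 0.21 (SE 0.06, limma, adjusted p = 0.0245) and lost its call without any one of the parental samples (without replicate 1, adjusted p = 0.0828; without replicate 2, 0.0648; without replicate 3, 0.088) and when sums were made equal with mitochondrially encoded genes set aside (0.0509). The latter took 8.07 to 8.66% of the summed FPKM in parental and 9.73 to 12.2% in adapted samples. MASTL, a mitotic kinase gene on the opposite strand, shares 6.04% of the exon bases of YME1L1 and went from 4.12 ± 0.02 to 2.89 ± 0.12 (SD, n = 3 each). Whether reads were counted by strand is not stated, and the part of MASTL in the fall of YME1L1 was not tested.

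OMA1, which cuts OPA1 when the membrane potential is lost, is a minus-strand gene of chromosome 1 (58415384 to 58546802). It was at 4.01, 4.01 and 4.02 in parental and at 3.53, 3.92 and 3.87 in adapted samples. Adapted replicate 1 was far below the others of its group, and the log2 fold change of -0.24 (SE 0.11, 95% interval -0.49 to 0.01) was not past the threshold (limma, adjusted p = 0.0921). Without adapted replicate 1 it was -0.12 (adjusted p = 0.0806), and over all 20 alternatives the adjusted p ranged from 0.0541 to 0.19. DAB1, which shares 6.91% of its exon bases, is listed at 0 in all samples. OMA1 minus YME1L1 was -1.89, -1.84 and -1.88 in parental and -2.18, -1.82 and -1.71 in adapted cells, a change of -0.029 in the mean (two-sided exact permutation test, p = 1). Without adapted replicate 1 the change was 0.11, the opposite direction.

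Taken by level, the 10 genes spanned from 7.35 FPKM (MIEF2) to 60.5 FPKM (FIS1) in parental cells, and their mean FPKM over all 6 samples lay at the 57.1 to 93.3 percentile of the rows tested. MIEF2 was below the median of the rows tested in every parental sample (3.40 to 3.42 on the log2 scale) and above it in every adapted sample (3.42 to 3.45). The parental order was FIS1, YME1L1, DNM1L, MFF, MFN2, OPA1, OMA1, MFN1, MIEF1 and MIEF2, and of these neighbours only MFF and MFN2 overlapped in range. In adapted cells FIS1 (71.1 FPKM) and YME1L1 (50.1 FPKM) still led, followed by MFF, MFN2, DNM1L, MIEF2, OPA1, MIEF1, MFN1 and OMA1. MFF and MFN2, MIEF2 and OPA1, MIEF1 and MFN1, and MFN1 and OMA1 then overlapped in range. DNM1L moved from the third place to the fifth, and MIEF2 from the last place to the sixth.

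The median of the fission genes (DNM1L, FIS1, MFF, MIEF1 and MIEF2) minus the median of the fusion genes (MFN1, MFN2 and OPA1) was 0.23, 0.22 and 0.19 in parental and 0.31, 0.29 and 0.51 in adapted cells on the log2 scale. In every parental sample this was MFF minus OPA1, and in every adapted sample DNM1L minus OPA1, because these were the middle genes of each set. It therefore compares different fission genes in the groups and is no measure of the families: the middle fission gene was lower in adapted samples although 4 of the 5 fission genes rose. Its mean was higher by 0.16 in adapted samples as deposited, but by -0.044, the opposite direction, when 0.2 was subtracted from parental OPA1, and by 0.087 without adapted replicate 3.

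Other genes of mitochondrial dynamics were read from 7 lists of 86 genes. Of these, 85 were matched by symbol (MARCHF5 was not) and 83 were tested. PEX11G, of peroxisome division, was among those under the filter. Past the threshold, 19 rose and 25 fell, or 53.0% of those tested, beside 56.9% of all rows. In 7 of the 83, as in OPA1, 1 group was off the 6-decimal grid, among them IMMT, RHOT1, RHOT2 and VDAC1 by 0.66 in the adapted samples and PHB2 and TOMM22 by 0.2 in the parental samples.

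Among 16 other effectors of fission and fusion, 2 rose, 5 fell and 9 were not past the threshold (median log2 fold change -0.044). When the constants of rows in other lists were subtracted, 1 rose. MTFR2, a mitochondrial fission regulator, fell from 3.16, 2.97 and 3.23 to 2.09, 1.64 and 1.47, and MTFP1, an inner membrane protein that promotes fission, from 4.50, 4.44 and 4.50 to 3.84, 3.36 and 3.28. MTFR1L, of the same family as MTFR2, rose from 3.54, 3.72 and 3.57 to 4.33, 4.36 and 4.28. None of these 3 overlapped between groups. Their log2 fold changes were -1.39 (SE 0.16), -0.99 (SE 0.14) and 0.71 (SE 0.07), with adjusted p of 3.52e-04, 8.56e-04 and 1.48e-04 (limma). DNM2, a dynamin, SPIRE1, an actin nucleator at fission sites, and MTFR1 also fell, and SLC25A46 also rose, though its groups overlapped (limma, adjusted p = 0.04997).

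Of 22 regulators of DRP1 and the mitofusins, 20 were tested, of which 7 rose and 6 fell (median 0.044). With the constant of 1 gene off the grid subtracted, 6 rose. The largest falls were in the mitotic kinases CDK1 and AURKA. CDK1, which phosphorylates DRP1 in mitosis, was at 5.79, 5.71 and 5.79 in parental and at 3.77, 3.18 and 2.84 in adapted samples, a log2 fold change of -2.50 (SE 0.21, limma, adjusted p = 8.0e-05). AURKA, a mitotic kinase upstream in that pathway, fell from 6.45 ± 0.02 to 4.48 ± 0.41 (SD, n = 3 each). PINK1, the kinase that starts mitophagy, rose from 4.10, 4.04 and 4.16 to 4.97, 4.92 and 4.90, without overlap.

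The 8 genes of mitochondrial transport held 4 that rose and 3 that fell (median 0.20, or 0.087 with the constants of RHOT1 and RHOT2 subtracted). SNPH, which anchors mitochondria to microtubules, fell from 4.70, 4.62 and 4.58 to 3.46, 2.55 and 2.56, a log2 fold change of -1.77 (SE 0.23, limma, adjusted p = 5.77e-04), and MYO19, a mitochondrial myosin, fell by 0.40. The Miro GTPases RHOT1 and RHOT2, which couple mitochondria to motors, were higher by 1.21 and 0.91 as deposited. With the constant of 0.66 subtracted from the adapted values they were higher by 0.55 (limma, adjusted p = 8.44e-04) and 0.25 (adjusted p = 0.0222), both still past the threshold. TRAK1 and TRAK2, the motor adaptors on the grid, also rose.

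At the inner membrane, 1 of 12 proteases and scaffolds rose and 5 fell (median -0.20, or -0.11 with the constant of PHB2 subtracted, when 4 fell). CLPP, a matrix protease, fell by 0.58 (limma, adjusted p = 6.02e-04), PARL, a rhomboid protease, fell by 0.42 (adjusted p = 0.0223), and IMMP2L, an inner membrane peptidase, rose by 0.22 (adjusted p = 0.0276). Of 10 genes of MICOS and cristae, 3 rose and 3 fell (median -0.056). APOO fell from 3.26 ± 0.08 to 2.57 ± 0.20 (SD, n = 3 each) and MINOS1, the older symbol of MICOS10, from 3.15 ± 0.14 to 2.46 ± 0.48, whereas SAMM50, the outer membrane partner of MICOS, rose from 4.14 ± 0.02 to 4.65 ± 0.05. IMMT, the core of MICOS, was higher by 0.97 as deposited and by 0.31 with its constant of 0.66 subtracted (limma, adjusted p = 0.0105).

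Of 5 genes of peroxisome division, which shares FIS1, MFF and DNM1L with mitochondria, 4 were tested and VAPB alone was past the threshold, with a rise of 0.59 (limma, adjusted p = 1.75e-04). Under mitochondrial content 13 genes were listed, of which 1 rose, 3 fell and 9 were not past the threshold. Their median was -0.12, or -0.076 with the constants of VDAC1 and TOMM22 subtracted, when 2 fell. These are RNA levels and do not measure content itself. The study assessed content by electron microscopy, MitoTracker, mitochondrial DNA and citrate synthase activity, and reported it raised in adapted cells. TOMM22, of the import pore, was the third that fell as deposited, but not with its constant subtracted (log2 fold change -0.012, limma, adjusted p = 0.894). HSPD1, the matrix chaperonin, fell from 8.19 ± 0.02 to 7.47 ± 0.20 and TOMM70, an import receptor, from 5.01 ± 0.04 to 4.66 ± 0.04 (SD, n = 3 each). VDAC1, the outer membrane channel, was higher by 1.24 as deposited and by 0.58 with its constant of 0.66 subtracted (limma, adjusted p = 0.00164).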

How the data were processed

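RNA-sequencing values of 3 parental and 3 adapted samples of H1975 cells were analyzed. The authors deposited 1 table of log2 values with 1 column per sample, and columns were matched to samples by group and replicate number. The scale was taken as log2(FPKM + 1) from the values, since undoing it gives 6-decimal numbers (within 0.001 of the last decimal). The submitters' processing notes name Bowtie2 2.1.0, STAR, edgeR and hg38, with no roles, and the study's methods name DESeq2. Both need counts for tests, so limma (version 3.58.1, under R 4.3.3) was used with a mean-variance trend, unpaired, on rows with a mean of at least 1, with Benjamini-Hochberg adjustment over 12656 rows. The fit was tested on simulated data with known changes, which does not measure its error rates in these samples. Depth is unknown, so no counting error is given. Values set within a sample were compared by exact permutation over samples.

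The genes and lists were chosen with earlier results of these data known, so no list was tested and no p was adjusted over a list alone. The genes named are the 10 genes and, from each other list, at most 2 with the highest and 2 with the lowest log2 fold change among calls without overlap between groups. A gene that this rule names is not reported here. CD3E, PTPRC, COL1A1, DNM2, SPIRE1, MTFR1, SLC25A46, TRAK1, TRAK2, PHB2, TOMM22 and the overlapping genes were named after their values were seen, as were the ratios to DNM1L and the motifs. Gene positions come from GENCODE v29 and promoter windows (250 bases before to 50 after each start) from RefSeq. Alternatives were another pseudocount (0.1), filters, scalings, settings of eBayes, a replicate block, a stricter threshold, leaving out each sample, and leaving out or subtracting the constants of rows off the grid.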

Additional observations from a re-analysis of the deposited data

How the results depend on the processing

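Of the 10 genes, 9 were past the threshold, and 6 to 9 were when each sample was left out in turn (6 without any one parental sample). At an adjusted p under 0.01, 5 were. With the constants subtracted 7 were, MFN1 (adjusted p = 0.05) and OPA1 no longer, and with rows off the grid left out, OPA1 among them, 8 of 9. DNM1L, MFN2, MIEF1 and MIEF2 kept their calls in all 20 alternatives, and no gene changed direction. The 44 calls among the 83 other genes became 34 to 52 when a sample was left out and 33 at 0.01. They became 40 (17 higher, 23 lower) with the constants subtracted, and 36 of 76 with rows off the grid left out.

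OMA1 minus YME1L1 changed by -0.13 to 0.11 when a sample was left out, and by 0.11 without adapted replicate 1. The median of fission genes minus that of fusion genes changed by -0.044 with the constant of OPA1 subtracted, against 0.16 as deposited; that alternative was added after the data were seen. Same-numbered samples did not deviate together (correlations of -0.051, -0.031 and -0.02 across rows), so the replicate number was not taken as a pairing. With a replicate block, 7 of the 10 genes and 40 of the 83 were past the threshold, MFN1 (adjusted p = 0.09) and YME1L1 (0.0603) no longer.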
